A study of Mus musculus with 12 samples.

Results

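Heterotrimeric G proteins carry signals from cell-surface receptors into the cell, and their beta and gamma subunits work as a tight dimer. The genes described here are 9 of the mouse genes for these subunits, 4 for beta (Gnb1, Gnb2, Gnb4 and Gnb5) and 5 for gamma (Gng2, Gng5, Gng10, Gng11 and Gng12), out of 40800 gene IDs in the deposited count table. They were found by gene symbol, with 1 gene ID each. The set was picked because Gnb1 was lower in Wnt gain-of-function ventricles at high expression. The other 8 were added to see whether related subunits were higher where Gnb1 was lower. The Gnb1 difference is therefore given as a description and supports nothing by itself.

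RNA was sequenced from mouse heart ventricles at embryonic day 12.5, with 6 control libraries and 6 libraries of the genotype labelled wnt gof, that is, with raised activity of the Wnt pathway. Neither the engineered allele, the Cre driver nor the number of embryos per library is given in the labels, so a p here speaks of the spread among the sequenced libraries alone, which may in part be technical. Library totals were 10130088 to 17526325 counts in control and 12127026 to 17184662 in Wnt gain of function. Axin2, a feedback gene that reads out the pathway, stood at 1.39 to 4.13 CPM (read counts scaled to the library total) in controls and at 3.77 to 26.0 CPM in the Wnt gain-of-function group, of which 5 of 6 libraries lay above all controls. Clustered on their deviations from the group means, the libraries were cut into 3 sets, a number chosen for the cut. Each set held 2 control and 2 Wnt gain-of-function libraries. Not all of these sets are close: Wnt gain of function 5 and 6, together in the first set, had a mean chi-square per gene of 59.4, and each was nearer to some libraries of the other sets by that measure. In 3 pairs (control 2 and 3, Wnt gain of function 1 and 2, and 3 and 4) the libraries were much closer to each other than in any other pair of a group (mean chi-square per gene 3.07 to 3.32, against 12.8 for the next pair). Cardiomyocyte markers Tnnt2, Myh6, Myh7 and the 7 others of that list summed to between 25970 and 35037 CPM in controls and between 26233 and 33796 CPM in the other group, none of them at 0, which matches the tissue label. In such tissue RNA, fewer cells of a type and less RNA per cell cannot be told apart.

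After a receptor is activated, the alpha subunit lets go of the beta-gamma dimer, and both parts act on effectors. In heart muscle cells the free dimer opens the potassium channels that slow the beat under vagal control, and it also binds phospholipase C beta, adenylyl cyclases, a PI3 kinase and the receptor kinases. The beta subunit folds into a propeller of WD repeats with the help of the CCT chaperonin, while the small gamma subunit carries the lipid that holds the dimer to the membrane. Gnb5 stands apart from the other beta subunits, since it pairs mainly with RGS proteins of the R7 type in place of a gamma subunit.

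The coding sequences show how near these relatives are, which bears on whether reads can be assigned to 1 of them. Sequences are of the principal transcript of each gene in GENCODE M21 (GRCm38), read 5′ to 3′. The last 30 coding bases of the beta genes, stop codon included, ran as follows, with Gnb1 and Gnb2 nearly alike at this end and Gnb5 the least like the others.

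Gnb1: tgggacagcttcctcaagatctggaactaa
Gnb2: tgggactccttcctcaagatctggaactaa
Gnb4: tgggacagttttcttagaatctggaattga
Gnb5: tgggatcacaccctaagagtttgggcataa

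Over the whole coding sequence, Gnb1 was identical to Gnb2 at 77.0% and to Gnb4 at 76.9% of aligned bases, but to Gnb5 at 59.8%. Gnb1 transcripts shared 0 of 4302 different stretches of 50 bases with transcripts of any other annotated gene. Its exons overlapped 0 other genes. The read length of the libraries is not given in the sources used here.

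The gamma genes end in a CaaX box, the signal for attaching the lipid. The box is printed in capitals, and its last codon marks the lipid: leucine codons (CTT, TTG, TTA) go with a geranylgeranyl group, and the serine codon TCA of Gng11 goes with the shorter farnesyl group.

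Gng2: gagaagaagttcttcTGCGCCATCCTTtaa
Gng5: agaccccagaaagtcTGCTCCTTTTTGtag
Gng10: cgggagcccaggtccTGTGCTCTACTTtga
Gng11: aaagaaaagggcagcTGTGTCATTTCAtaa
Gng12: aaggataagaagaccTGCATCATCTTAtag

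Among the gamma genes, Gng2 and Gng12 were the closest pair, identical at 72.3% of aligned coding bases, and Gng10 and Gng11 the most distant, at 50.8%. Reads of some members are less certain than those of Gnb1. The gene Gm20503, which reads through into Gng10, covers 946 of the 1314 exon bases of Gng10 and was listed at 0 counts in all 12 libraries, so the level of Gng10 is uncertain. Exons of Gng2 shared 897 of 4390 bases with a long noncoding RNA on the opposite strand, and the strand setting of the counting is not given in the sources used here. Gng5 shared 164 of 2759 different 50-base stretches (5.94%), taken over all its transcripts, with 6 other genes or pseudogenes. Over its principal transcript alone, of 593 bases, the share can be larger and was not counted.

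Gnb1 (ENSMUSG00000029064, chr4:155491361-155559269 of GRCm38, plus strand) encodes the beta subunit of most classical G protein dimers. In control libraries its lowest, median and highest values were 1307, 1727 and 1995 CPM. The same 3 values were 966, 1107 and 1425 CPM with Wnt gain of function. All 6 Wnt gain-of-function libraries lay under the control median, and 5 of them lay under every control library. Wnt gain-of-function replicate 6, at 1425 CPM, reached above control replicate 5, at 1307 CPM, and so the groups overlapped. The means were 1696 ± 244.2 and 1122 ± 167.8 CPM (SD, n = 6 each), a log2 fold change of -0.60 ± 0.112 (SE; 95% interval -0.83 to -0.36), which is 0.662 times the control level.

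That difference made Gnb1 1 of 10 genes called lower among 14774 tested by edgeR's quasi-likelihood test at an adjusted p under 0.05. Genes called lower were 0.0677% of those tested, genes called higher 0.433% and both together 0.501%. Genes whose groups did not overlap in CPM, which Gnb1 is not among, were 0.46% of those tested (0.162% lower and 0.298% higher), and 0 of the 9 members had such groups. Of the 74 called genes it was the one with the most reads. Since Gnb1 was chosen for this call, nothing is read from the share. The call was lost when any 1 of 7 libraries was left out, namely control 1, 2 or 3 or Wnt gain of function 1, 2, 3 or 4, with edgeR adjusted p-values of 0.0501 to 0.0657 in place of 0.022. It was also lost in limma-voom (0.0526) and when the 3 close library pairs were each summed into 1 sample (0.427, log2 fold change -0.53). In the authors' deposited table Gnb1 had a log2 fold change of -0.597 and an adjusted p of 0.0343, in a table where 0.13% of genes had an adjusted p under 0.05. The other 8 had log2 fold changes of -0.133 to 0.332 in the authors' deposited table, with adjusted p-values from 0.884 to 0.997.

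The lower Gnb1 level was present in each set of libraries. Gnb1 was chosen for this difference in the same libraries, so this is a description and adds no support. In the first set the Gnb1 means were 1781 CPM for controls and 1247 CPM for Wnt gain of function, in the second 1832 and 1147 CPM, and in the third 1474 and 972.7 CPM. These are log2 ratios of -0.51, -0.68 and -0.60, and within each set both control libraries lay above both Wnt gain-of-function libraries. The second set consists of the close pairs control 2 and 3 and Wnt gain of function 1 and 2. The third holds the close pair Wnt gain of function 3 and 4. Libraries of a close pair may not be independent, so the second set can be near to 1 sample against 1. With the sets as a block, edgeR gave Gnb1 a log2 fold change of -0.60 ± 0.0777 (adjusted p = 0.000803). The sets were found from these same libraries, and the first is not a close one, so this p can be too small.

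**Figure D1:**
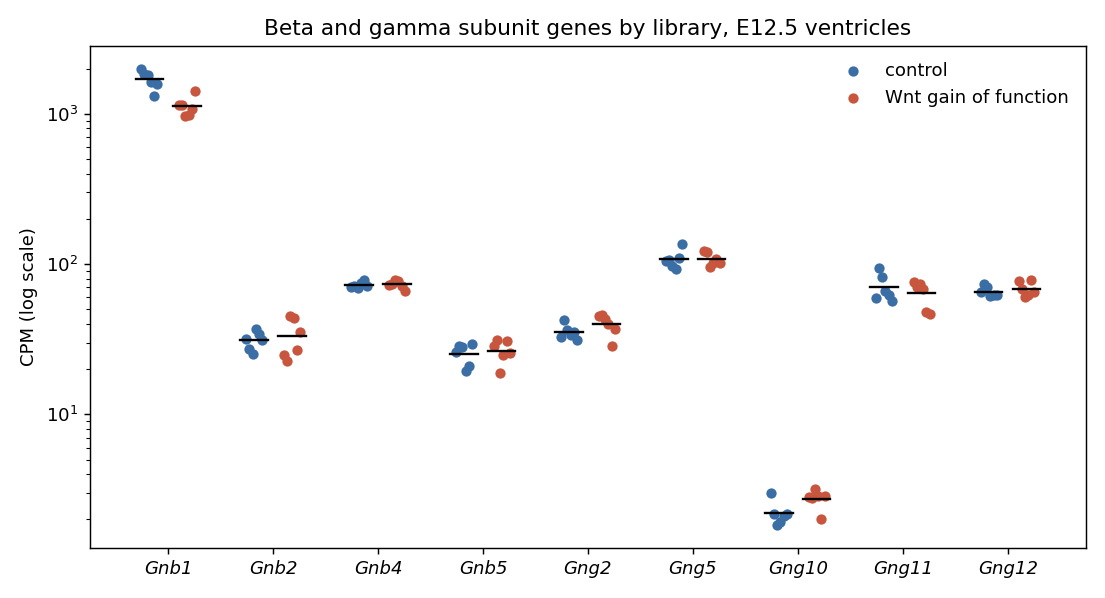
CPM of the 9 beta and gamma genes (log axis), each point 1 library, control in blue and Wnt gain of function in red, with bars at the group means (n = 6). Gnb1 lies at 1307 to 1995 CPM in controls and 966 to 1425 CPM in libraries with Wnt gain of function, while the points of the other 8 genes cover similar ranges in both groups.

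The promoter of Gnb1 is shown because the groups differ in Wnt activity, whose nuclear partners, the TCF and LEF factors, bind DNA at short sites of which CTTTGA is a common core. RefSeq promoter windows (GRCm38.p6), 250 bases before to 50 after the start, were found for 7 of the 9 genes. The Gnb1 window, chr4:155491111-155491410 on the plus strand, has a GC content of 70.3% and holds the letters CTTTGA, or TCAAAG for the other strand, 0 times. The Gnb2 window, chr5:137533257-137533556 on the minus strand, holds CTTTGA 1 time, 157 bases before the start, printed in capitals. Of 32851 promoter windows of the same length, 16% hold these letters on either strand, and the other 5 member genes with a window hold 0. A match is a description of the letters and not a binding site, and its absence covers this window alone.

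Gnb1: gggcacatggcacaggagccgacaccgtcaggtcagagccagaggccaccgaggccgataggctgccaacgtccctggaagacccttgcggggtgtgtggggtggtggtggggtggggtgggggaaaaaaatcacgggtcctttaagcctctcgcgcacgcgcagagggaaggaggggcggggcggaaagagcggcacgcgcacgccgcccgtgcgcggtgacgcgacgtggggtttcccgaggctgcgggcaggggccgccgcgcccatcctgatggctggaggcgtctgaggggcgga
Gnb2: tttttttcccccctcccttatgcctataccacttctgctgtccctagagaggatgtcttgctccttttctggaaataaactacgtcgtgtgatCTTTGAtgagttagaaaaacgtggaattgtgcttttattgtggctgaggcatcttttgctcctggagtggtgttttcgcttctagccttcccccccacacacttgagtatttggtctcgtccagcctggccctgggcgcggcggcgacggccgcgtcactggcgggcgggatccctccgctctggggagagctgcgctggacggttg

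None of the other beta genes was called higher. At the upper bounds of their intervals, the gain in reads would be a few percent of the difference in Gnb1 means. Gnb4 (ENSMUSG00000027669, chr3:32580332-32616585, minus strand), a close relative of Gnb1 in the heart, had a lowest, median and highest value of 69.4, 71.1 and 78.2 CPM in controls and of 66.1, 73.3 and 78.4 CPM in libraries with Wnt gain of function. The ranges were nearly the same, and the log2 fold change was 0.01 ± 0.0625 (95% interval -0.12 to 0.15). Gnb2 (ENSMUSG00000029713, chr5:137528127-137533510, minus strand), a widely expressed classical beta subunit, ran from 25.03 over 31.3 to 37.2 CPM in controls and from 22.5 over 31.0 to 45.4 CPM in Wnt gain of function. Its coefficient of variation was 14.4% in controls and 30.1% in Wnt gain of function, where replicates 3 and 4 were highest, and it had a log2 fold change of 0.09 ± 0.172 (95% interval -0.27 to 0.46). Gnb5 (ENSMUSG00000032192, chr9:75306288-75345876, plus strand), the partner of R7 RGS proteins, ran from 19.4 over 27.0 to 29.4 CPM and from 18.7 over 26.9 to 31.2 CPM, with a log2 fold change of 0.06 ± 0.135 (95% interval -0.22 to 0.35). In all 3 genes the groups overlapped widely.

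Summed, Gnb2, Gnb4 and Gnb5 went from 129.0 ± 3.95 to 132.9 ± 8.66 CPM (SD, n = 6 each), a difference of 3.91 CPM, against a Gnb1 difference of -573.5 CPM. The gain is 0.682% of the Gnb1 difference in reads, and 1.03% per kilobase of transcript. Were all 3 genes at the upper bound of their 95% intervals, the gain would be 26.4 CPM, or 4.604% of the Gnb1 difference (6.28% per kilobase). These shares are of the difference in Gnb1 means. Gnb1 has a 95% interval of its own, 0.561 to 0.780 times the control level, and against a smaller difference the shares would be larger. All these intervals treat the 12 libraries as independent, and can be too narrow if the close library pairs are not. With those pairs summed, log2 fold changes were 0.03 ± 0.175 for Gnb2, -0.01 ± 0.0777 for Gnb4 and 0.12 ± 0.146 for Gnb5 (SE). RNA alone was measured, not protein. The 4 beta genes together had 1825 ± 241.4 CPM in controls and 1255 ± 161.6 CPM in the other group, a log2 ratio of -0.54. The share of Gnb1 among beta reads was 92.8% ± 1.21 in control and 89.2% ± 1.85 in Wnt gain-of-function libraries (SD, n = 6 each). For Gnb4 the shares were 4.06% ± 0.758 and 5.94% ± 0.995, and a share of this kind moves when Gnb1 alone does.

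No gamma gene was called in either direction, and their summed level differed by 1.81 CPM between the groups. Gng5 (ENSMUSG00000068523, chr3:146499807-146505572, plus strand), a broadly expressed gamma subunit, had a lowest, median and highest value of 93.1, 106.3 and 136.6 CPM in controls and 95.1, 104.8 and 121.4 CPM in Wnt gain of function. Its log2 fold change was -0.002 ± 0.0945, with a 95% interval of -0.20 to 0.20. Gng12 (ENSMUSG00000036402, chr6:66896397-67021350, plus strand), the relative of Gng2, ran from 61.1 over 63.5 to 73.2 CPM and from 60.2 over 66.8 to 78.3 CPM, with a log2 fold change of 0.06 (95% interval -0.11 to 0.24). In both genes the groups overlapped.

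Gng11 (ENSMUSG00000032766, chr6:4003904-4008445, plus strand), the farnesylated member, ran from 56.7 over 63.9 to 94.2 CPM in controls and from 46.7 over 69.7 to 75.7 CPM in Wnt gain of function. Its log2 fold change was -0.13 ± 0.152, with the spread inside each group wider than the difference. The 2 lowest libraries were Wnt gain of function 5 and 6, at 48.2 and 46.7 CPM. Gng2 (ENSMUSG00000043004, chr14:19872559-19977627, minus strand), a gamma subunit common in blood cells and brain, ran from 31.0 over 34.5 to 42.5 CPM and from 28.3 over 41.3 to 46.0 CPM. In Gng2, 5 of 6 Wnt gain-of-function libraries lay above the control median, but replicate 5 was the lowest of all 12, and the log2 fold change was 0.18 ± 0.113 (95% interval -0.06 to 0.42).

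Gng10 (ENSMUSG00000038607, chr4:59035088-59041903, plus strand), the least counted member, had 21 to 47 counts per library. It stood at 1.84, 2.14 and 3.01 CPM (lowest, median and highest) in controls and at 2.00, 2.83 and 3.21 CPM in libraries with Wnt gain of function. At these counts its log2 fold change was 0.33 ± 0.177, the largest above 0 among the members, with a 95% interval of -0.05 to 0.70. All 9 members were tested. Of the 8 other than Gnb1, 0 were called in edgeR over all genes, with 0 at an unadjusted p under 0.05, against 6.3% of all genes tested, and DESeq2 and limma-voom called 0. Their adjusted p-values ran from 0.923 to 0.999. Values that miss the threshold do not show equal levels, and the intervals bound them.

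The 5 gamma genes summed to 281.3 ± 22.6 CPM in controls and 283.1 ± 26.6 CPM in libraries with Wnt gain of function (SD, n = 6 each), with overlapping ranges of 255.5 to 319.1 and 253.0 to 322.1 CPM. The log2 ratio of the sums was 0.01. Over all 9 members 6 log2 fold changes lay above 0 and the median was 0.06, beside 0.001 over all genes tested.

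**Figure D2:**
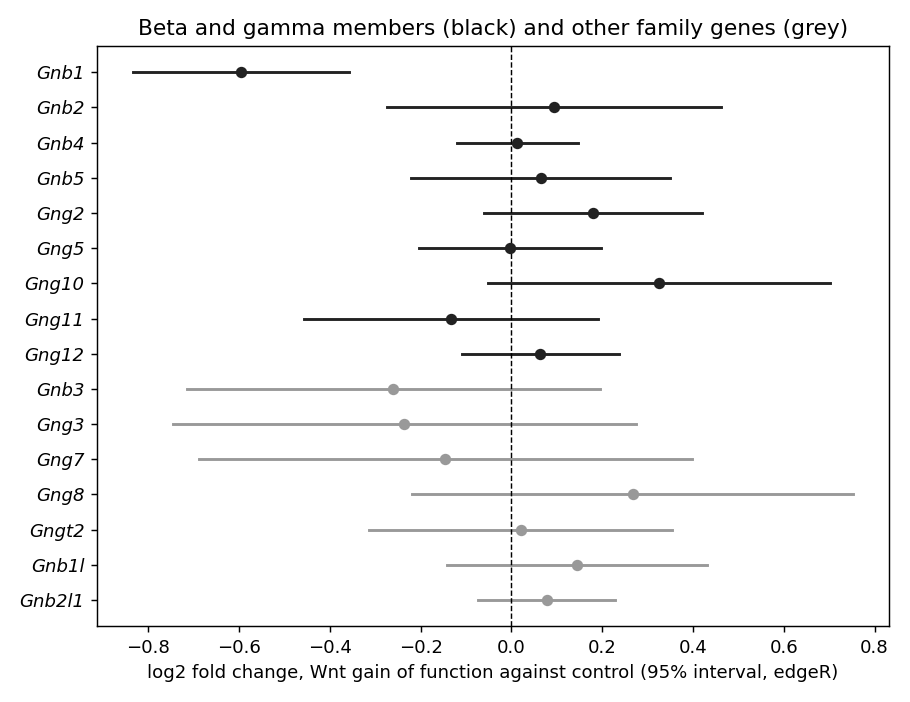
Log2 fold change, Wnt gain of function against control, with 95% intervals from edgeR, for the 9 members (black) and the 7 other tested family genes (grey). The interval of Gnb1, -0.83 to -0.36, lies wholly under 0, and the intervals of the other 15 genes include 0.

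Per kilobase of principal transcript, the order of levels in control libraries was Gnb1 at 539.5 ± 77.7, Gng5 at 182.4 ± 25.8 and Gng11 at 76.3 ± 16.2 CPM per kilobase (SD, n = 6). Then came Gnb2 (16.7 ± 2.40), Gng12 (15.4 ± 1.17), Gnb5 (14.1 ± 2.35) and Gnb4 (12.1 ± 0.55), of which each neighbouring pair overlapped across libraries. Gng2 (9.22 ± 1.05) lay below all Gnb4 values on this length, and Gng10 was last at 1.85 ± 0.352. Set over all annotated exons in place of the principal transcript, Gng5 was at 39.1 and Gng11 at 76.3, Gng12 at 13.9 and Gnb2 at 9.12, and Gng2 at 8.03, Gnb5 at 8.15 and Gnb4 at 5.72. The order of Gng5 and Gng11, of Gnb2 and Gng12, and of Gnb4 and Gng2 thus reverses with the length used. Gnb1 was first and Gng10 last on both lengths. The place of Gng10 is uncertain, since 946 of its 1314 exon bases lie under Gm20503, which was listed at 0 counts. Even in Wnt gain-of-function libraries Gnb1 was at 357.0 ± 53.4 CPM per kilobase, 7.98 times the other beta genes together, where control libraries had 12.6 times. The beta genes summed to 582.3 CPM per kilobase in control and 401.8 in Wnt gain of function, and the gamma genes to 285.2 and 280.5. These sums and the ratios before them are on the principal transcript and change with the length used. Gng5 alone goes from 182.4 to 39.1 in control over all exons.

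**Figure D3:**
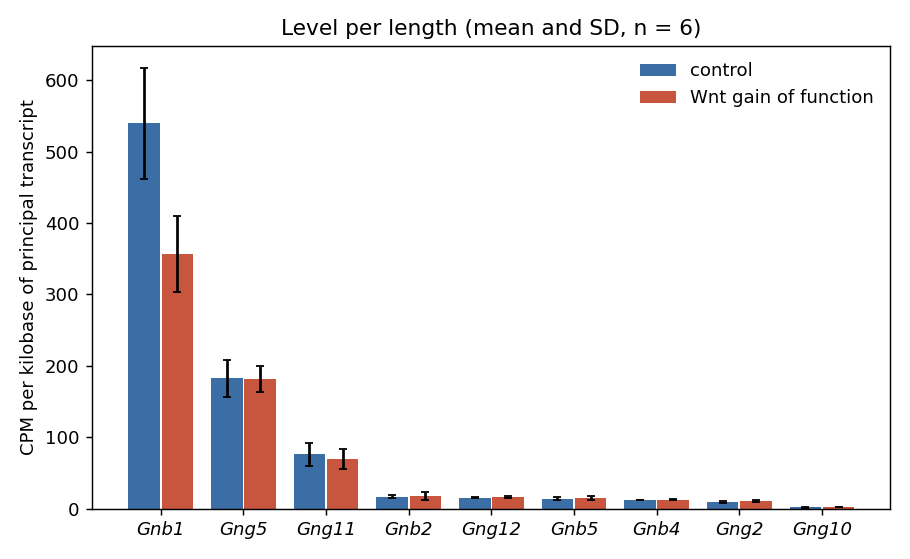
Mean CPM per kilobase of principal transcript with SD (n = 6 libraries per group) for the 9 genes, control in blue and Wnt gain of function in red. Gnb1 stands highest in both groups, at 539.5 and 357.0, with Gng5 next at 182.4 and 182.1.

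Within the groups, Gnb4 ran opposite to Gnb1. Their deviations from the group means on the log2 CPM scale had a Pearson r of -0.87 and a Spearman rho of -0.82 over 12 libraries, with r of -0.81 in control and -0.95 in Wnt gain of function (6 libraries each). Wnt gain-of-function replicate 6 had the most Gnb1 of its group and the least Gnb4 (66.1 CPM), and control replicate 5 had the least Gnb1 of its group and the most Gnb4 (78.2 CPM). Without these 2 libraries, the farthest in Gnb1, r was -0.72 over 10. With the means of the library sets removed as well it was -0.76, and with library size alone as the scaling -0.69. Leaving out any 1 library gave -0.92 to -0.80. The swing of Gnb4 was small, 66.1 to 78.4 CPM over all libraries, against 966 to 1995 CPM for Gnb1. No p is given, because the pair stood out among 36 pairs of members and the close library pairs may not be independent.

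**Figure D4:**
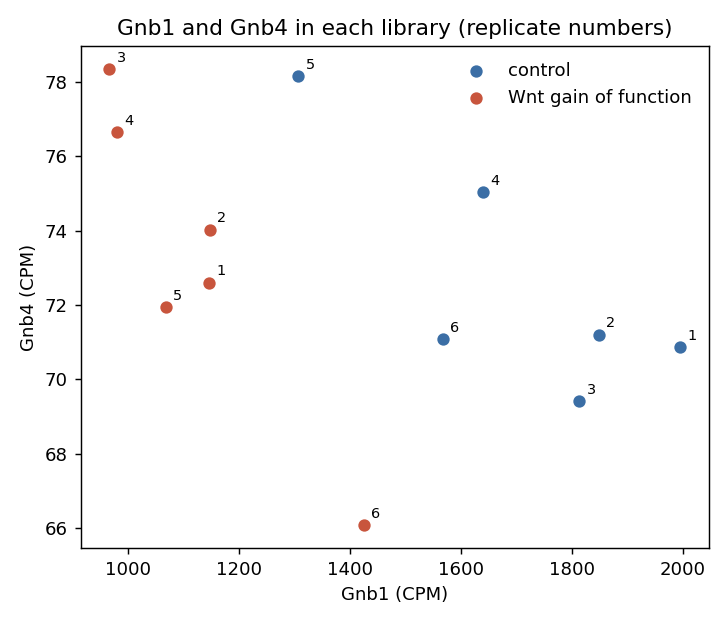
Gnb1 against Gnb4 in CPM (linear axes that do not start at 0), 1 point per library with its replicate number, control in blue and Wnt gain of function in red. In each colour libraries with less Gnb1 tend to have more Gnb4, and the red points lie to the left of the blue ones at similar heights, except that control 5 has less Gnb1 than Wnt gain of function 6.

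By the same measure Gnb4 was among the 5 genes most unlike Gnb1 of 5285 genes ranked, next to Golgb1 (r = -0.95) and Syne2 (-0.89), which encode very large proteins of the Golgi and the nuclear envelope, Atp6v1f (-0.89), a proton pump subunit, and Fis1 (-0.89), a mitochondrial fission protein. Most like Gnb1 were Capzb (0.95) and Wdr1 (0.93), which both act on actin filaments, then Nap1l4 (0.91), a histone chaperone, Prkaa1 (0.90), an energy sensor kinase, and St13 (0.90), a cochaperone. Large values of r were common, since the middle 50% of genes lay between -0.34 and 0.47. The log2 fold changes of these 9 genes other than Gnb4 lay between -0.07 and 0.06, and 0 of them were called. Gnb1 deviations had an r of -0.60 with the haemoglobin share of reads and of 0.53 with the share of reads on genes over 8000 exon bases, and Gnb4 deviations had 0.55 and -0.26. Their part in the Gnb1 and Gnb4 pattern was not tested. Neither share separated the groups: haemoglobin genes took 0.948% to 7.37% of reads in control and 1.19% to 8.73% in Wnt gain of function, and the long genes 19.97% to 22.6% and 20.4% to 22.1%.

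Among the other pairs, Gng2 and Gng11 rose and fell together (r = 0.85 over 12 libraries, 0.93 in control and 0.83 in Wnt gain of function). Gnb5 and Gng12 also ran together (0.71), and Gnb2 ran opposite to Gnb5 (-0.82) and to Gng12 (-0.82). These too were picked among the 36 pairs of members, and no p is given for them. The close library pairs may not be independent, and this limit holds for every r in this paragraph. Gng2 followed the summed leukocyte markers (r = 0.89), as Gng11 did (0.73), and both followed the mitochondrial share of reads (0.73 and 0.84). Gng11 followed mesenchyme (0.74) and cardiomyocyte (0.70) markers about as closely as leukocyte markers, and Gng2 followed these less closely (0.57 and 0.63). Other marker sums moved with both genes in the opposite direction, with r of -0.82 and -0.78 for platelet markers and -0.83 and -0.88 for neural markers. The 8 leukocyte markers summed to between 51.4 and 67.2 CPM in controls and between 51.8 and 97.5 CPM in the other group, 8 of 8 had a log2 fold change above 0 (median 0.41), and none was at 0. Of these 8 markers, 5 had an unadjusted edgeR p under 0.05, beside 6.3% of all genes tested, and 0 were called. The part of any of these in the Gng2 and Gng11 values was not tested. For Gnb1 the r with the leukocyte markers was 0.19, with erythroid markers -0.57 and with platelet markers -0.42. It was 0.48 with the 7 pericyte and smooth muscle markers, and between -0.30 and 0.36 with the remaining lists. The pericyte and smooth muscle markers summed to between 215.8 and 409.6 CPM in controls and between 192.7 and 277.0 CPM in the other group. That list holds Rgs5, at 78.8 and 13.5 CPM on average, its 1 called gene. Of the 7 genes, 5 had log2 fold changes below 0 and 2 above. The part of these cell types in the Gnb1 values was not tested.

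The deposited counts hold 10 further family genes, of which 7 were tested and 0 were called by edgeR, by DESeq2 or by limma-voom, with 0 at an unadjusted p under 0.05. Gnb3, the beta subunit of cone photoreceptors, was at 6.44 ± 1.31 and 5.39 ± 1.80 CPM (SD, n = 6 each; log2 fold change -0.26, 95% interval -0.72 to 0.19). Gng3, Gng7 and Gng8 stood between 1.87 and 2.97 CPM on average in both control and Wnt gain of function, and Gngt2, a gamma subunit first known from cones, at 25.7 ± 7.07 and 26.1 ± 3.89 CPM. The untested genes Gng4, Gng13 and Gngt1 had at most 12 counts in any library. Gnb2l1, now named Rack1, a ribosomal scaffold that is a beta-like propeller without a gamma partner, was at 1077 ± 97.8 and 1137 ± 47.3 CPM (log2 fold change 0.08, 95% interval -0.07 to 0.23), and Gnb1l, another relative in name, at 5.84 ± 0.695 and 6.45 ± 0.969 CPM.

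Of 100 tested genes that work with the dimer, in 6 lists chosen by function, Rgs5 was the single call of edgeR, DESeq2 and limma-voom alike. Over all genes tested edgeR called 74 of 14774, or 0.501%. At such a share, 0 or 1 call in a list of this size says little about the list. Among 12 tested alpha subunits 0 were called and the median log2 fold change was -0.003. At an unadjusted edgeR p under 0.05, which 6.3% of all genes tested reached, there was 1, Gnai1. The lists of folding, effector and kinase genes had 0 under that threshold. Gnai1, an inhibitory alpha subunit, was at 31.5 ± 4.38 and 42.7 ± 9.97 CPM, a log2 fold change of 0.44 ± 0.143 with an edgeR adjusted p of 0.377, and Gna14 at 1.46 ± 1.20 and 0.782 ± 0.374 CPM. Gnai2, Gnai3 and Gnaq, at 140.1, 104.1 and 203.9 CPM in control, had log2 fold changes of -0.02, -0.02 and 0.01. Among 18 tested genes of folding and lipid attachment 0 were called, and log2 fold changes stayed between -0.04 and 0.13. The chaperonin subunit Cct5 was at 711.6 ± 53.2 and 747.2 ± 40.2 CPM, and Fnta, the alpha subunit shared by both prenyl transferases, at 43.7 ± 4.24 and 47.9 ± 7.36 CPM.

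Of 23 effectors 0 were called (median log2 fold change -0.01, range -0.41 to 0.35). Kcnj3 and Kcnj5, the pair of potassium channel subunits that the dimer opens in heart, had log2 fold changes of -0.27 ± 0.135 and 0.14 ± 0.0958, and Plcb1, a phospholipase C, of 0.35 ± 0.183. Of 7 receptor kinases and arrestins 0 were called, with Grk5 at -0.19, Arrb1 at -0.18 and Adrbk1, the kinase that docks on the free dimer, at 0.16. Of 19 regulators of G protein signalling 1 was called lower and 0 higher. That was Rgs5, a pericyte gene whose protein speeds the switching off of alpha subunits. Rgs5 was at 78.8 ± 29.7 and 13.5 ± 9.17 CPM, a log2 fold change of -2.54 ± 0.461 with an edgeR adjusted p of 0.0404. Its call held without control 6 and without Wnt gain of function 5, and was lost when any 1 of the other 10 libraries was left out. Rgs3 had 0.26 ± 0.122. Of the R7 proteins that bind Gnb5, Rgs6 had -0.30 ± 0.166, Rgs11 -0.10 and Rgs9 0.03 ± 0.365. Their anchors Rgs7bp and Rgs9bp had -0.03 and 0.40 ± 0.246. Of 21 receptors of heart and vessels edgeR and DESeq2 each called 0. At an unadjusted edgeR p under 0.05 there were 4, beside 6.3% of all genes tested. Calcrl, the adrenomedullin receptor, had 0.22 ± 0.077 (edgeR adjusted p = 0.464), and the adenosine receptor Adora2a -0.61 ± 0.167 (0.201). The others were Adra1b, at 1.12 and 1.89 CPM on average, with 0.70 ± 0.253 (0.490), and Lpar1 with 0.23 ± 0.101 (0.734).

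On the chromosome, 46 other tested genes lie within 1 Mb of Gnb1. Of these, 1 was called in edgeR, 2.17% beside 0.501% over all genes: Fam213b, on the upstream side, at 34.4 ± 4.89 CPM in controls and 22.7 ± 2.56 CPM in the other group, a log2 fold change of -0.60 ± 0.107 (adjusted p = 0.0181). Fam213b was singled out after its values were seen. The nearest gene, Nadk, 3.1 kb downstream, had a log2 fold change of 0.17 ± 0.0876. The 46 neighbours had a median of -0.03, with 25 below 0 and 21 above.

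**Figure D5:**
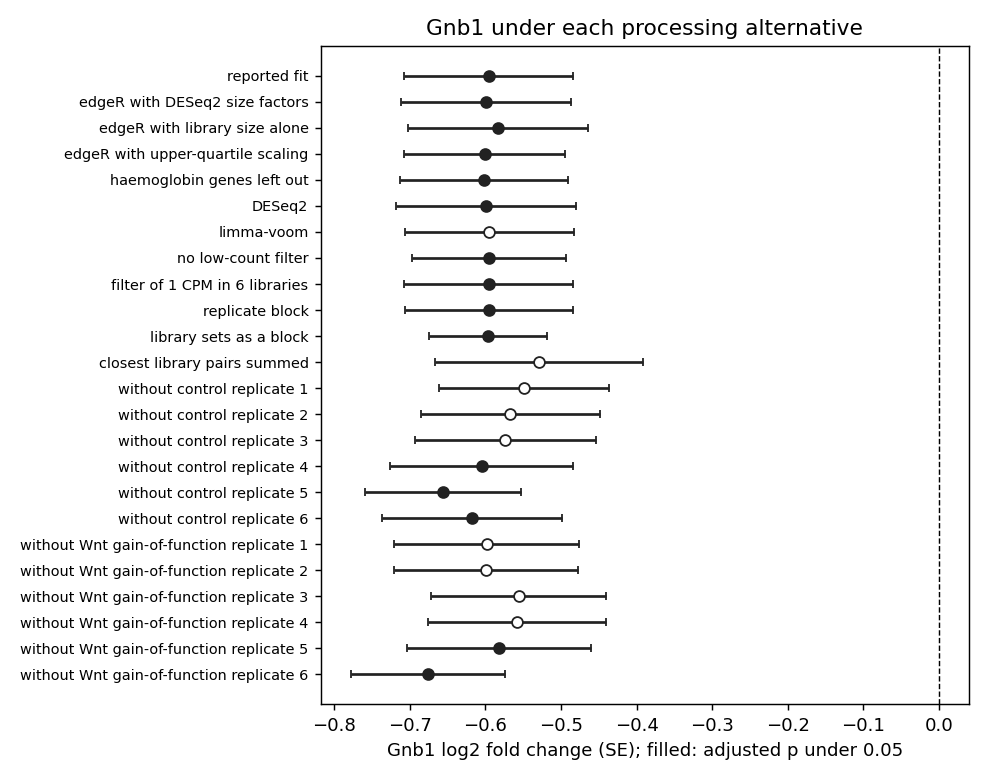
Log2 fold change of Gnb1 with SE in the reported edgeR fit and under 23 alternatives, filled where the adjusted p is under 0.05. The points run from -0.68 to -0.53, and 14 of the 23 alternatives are filled.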

How the data were processed

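Bulk RNA sequencing of 12 ventricle libraries was analysed. RNA was extracted with Trizol, per the labels' protocols. Subread, featureCounts and edgeR are named in the submitters' processing notes; build, annotation, versions and strand setting were not given in the sources used here. The deposited file holds raw read counts per Ensembl gene, per the file headers. Of 41422 rows, 622 repeats of a gene ID with the same counts were left out. The authors' deposited comparison table gives log2 values per library, log2 fold changes and adjusted p-values; its log2 values matched log2 of count plus 0.5 less 1 constant per library within 0.01 for 99.9964% of values.

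Counts were fitted in R 4.3.3 with edgeR 4.0.16: filterByExpr (minimum count 10; 14774 genes), TMM scaling, robust glmQLFit, then glmQLFTest on the group term of a model without covariates, Benjamini-Hochberg over all genes, called under 0.05. SE came from the F statistic. CPM use TMM-scaled totals. The fit was tested on simulated data. Alternatives used other scalings, filters, DESeq2 1.42.0, limma-voom (limma 3.58.1), blocks and left-out libraries. Same-numbered libraries of the 2 genotypes were not treated as pairs (r of their deviations -0.38 to 0.46).

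The members and gene lists were chosen with earlier results of these data known. Named were all members and tested relatives, the called genes and the 2 with the lowest p in each list, and the 5 genes most like and unlike Gnb1 (mean log2 CPM of at least 5). Kcnj5, Gnai2, Gnai3, Gnaq, Adrbk1, Rgs6, Rgs9, Rgs11, Rgs7bp, Rgs9bp, Adra1b, Lpar1, Nadk and Fam213b were named after their values were seen. Coordinates, lengths and coding sequences come from GENCODE M21 and promoters from RefSeq.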

Additional observations from a re-analysis of the deposited data

Results flagged for a closer look

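In 22 groups of 6 library values (the 9 genes and their beta and gamma sums, in each genotype), 3 had 1 library far from the other 5 by Dixon's test, where chance gives about 1 in 20. Gng5 was highest in control replicate 6, at 136.6 CPM, with the next library at 109.3 CPM. Gng10 was highest in control replicate 1, at 3.01 CPM, with the next at 2.18 CPM, and lowest in Wnt gain-of-function replicate 5, at 2.00 CPM, with the next at 2.75 CPM. Gng10 values rest on 21 to 47 counts per library.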

How the results depend on the processing

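Gnb1 kept its direction in 23 of 23 alternatives, with log2 fold changes of -0.68 to -0.53, and its call in 14. Since Gnb1 was chosen for this difference and the alternatives reuse the same libraries, the kept direction adds no support. The count of members called lower, 1 in edgeR, was 0 in limma-voom and 0 with the close library pairs summed, and 0 to 1 with each library left out in turn. The count of pathway genes called lower, 1 (Rgs5), was 0 without a low-count filter, 0 with the replicate block, 0 with the close pairs summed and 0 to 1 with each library left out. With the library sets as a block 1 pathway gene was called higher, Rgs3 (adjusted p = 0.0464), against 0 in edgeR without it. With the replicate number as a block Gnb1 had a log2 fold change of -0.60 and an adjusted p of 0.0454; this pairing is by number alone. Over all genes, calls numbered 64 higher and 10 lower in edgeR, 135 and 25 in DESeq2, 3 and 3 in limma-voom, 97 and 12 without a filter, 195 and 100 where the sets were a block, 0 and 1 with the close pairs summed, and 34 to 149 higher and 4 to 28 lower with each library left out, the highest without Wnt gain of function 5. No member was called higher under any alternative. No scaling moved the median of all genes by more than 0.01 on the log2 scale. Gng5, whose fold change is near 0, lay below 0 in 15 and above 0 in 8 alternatives, and Gnb2, Gnb4 and Gnb5 lay below 0 in 2, 2 and 1. Counting error bears most on Gng10, with 21 to 47 counts per library, while the other members had at least 208.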
